A study of Homo sapiens with 30 samples.

Results

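Transcript levels were followed for 9 genes of the extracellular proteolysis system of brain endothelial cells: the matrix metalloproteinases MMP1, MMP2, MMP3, MMP9, MMP10 and MMP14 and the tissue inhibitors of metalloproteinases TIMP1, TIMP2 and TIMP3. They were taken by symbol from a table of 63138 genes, and all 9 symbols were found. RNA sequencing had been done on hCMEC/D3, an immortalised human line from the endothelium of brain microvessels that serves in culture as a stand-in for the blood-brain barrier. There were 10 groups of 3 libraries, every one labelled 12 h and batch 1. Cells of the direct groups had serum-free medium with nothing added (Control), or with 1 agent: TNFα (tumour necrosis factor, 25 ng/mL), IL-1β (interleukin-1β, 10 ng/mL), C5a (a complement fragment, 50 ng/mL) or epinephrine (200 nM). Vesicle groups (EV-Control, EV-TNFα, EV-IL-1β, EV-C5a and EV-Epinephrine) received extracellular vesicles collected from the medium of cells given those same treatments. The dose of vesicles is not given in the labels, and all groups are of 1 cell line, which is immortalised and grown alone. The labels do not say that the 3 libraries of a group came from separate cultures, so p-values measure only the spread between these samples, which may be technical.

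Libraries held 16643961 to 22112326 counts, with at least 10 counts for 14340 to 15196 genes. Of 12 endothelial marker genes, 11 had at least 10 counts in every library, while EMCN had 0 to 13. The summed endothelial marker level was highest in Control (a mean of 1186 CPM, counts scaled to a common library size) and lowest in EV-C5a (730 CPM), against 1149 CPM in TNFα cells. Of 12 pericyte or fibroblast markers, 5 had at least 10 counts in every library, among them CSPG4, COL1A1 and PDGFRB, with a summed level of 381 to 635 CPM per library; PDGFRA, DCN and DES stayed at 8 counts or fewer. Astrocyte markers summed to 1.40 to 5.78 CPM per library. GFAP had 12 to 108 counts and made up most of that sum in Control (3.27 of 3.42 CPM), while AQP4 and S100B were at 0. Leukocyte or microglia markers summed to 0.838 to 2.83 CPM, with PTPRC at 3 to 30 counts and TYROBP at 0. The part of these markers in the results below was not tested.

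Matrix metalloproteinases are secreted or membrane-anchored proteases that cut collagens, laminins and other matrix proteins, and that also release or destroy cytokines, receptors and junction proteins. They are made as inactive precursors and depend on a zinc ion held by 3 histidines of the catalytic domain. TIMPs switch them off by inserting the first residues of the mature inhibitor, which begin with a cysteine, into that site. In brain vessels these enzymes are known for degrading the endothelial basement membrane and tight junction proteins during inflammation, and TIMPs for limiting it.

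The coding stretches of this enzyme and inhibitor contact are shown because they define which members are proteases and which are inhibitors. They were read from GENCODE 29 transcripts, 5′ to 3′ on the coding strand, and positions are those of GRCh38. In the proteases, capitals mark the 3 histidine codons of the zinc-binding site. In the inhibitors, capitals mark the codons of the first cysteine of the mature protein and of the next cysteine.
MMP1 (chr11:102795549-102795581, minus strand, exon 5 of 10): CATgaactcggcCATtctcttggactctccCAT
MMP3 (chr11:102840535-102840567, minus strand, exon 5 of 10): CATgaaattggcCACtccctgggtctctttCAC
MMP10 (chr11:102776718-102776750, minus strand, exon 5 of 10): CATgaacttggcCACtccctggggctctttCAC
MMP2 (chr16:55491827-55491859, plus strand, exon 8 of 13): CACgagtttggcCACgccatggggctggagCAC
MMP9 (chr20:46012453-46012485, plus strand, exon 8 of 13): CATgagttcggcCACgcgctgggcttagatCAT
MMP14 (chr14:22843283-22843315, plus strand, exon 5 of 10): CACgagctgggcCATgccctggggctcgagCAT
TIMP1 (chrX:47583485-47583499, plus strand, exon 2 of 6): TGCaccTGTgtccca
TIMP2 (chr17:78924996-78925010, minus strand, exon 1 of 5): TGCagcTGCtccccg
TIMP3 (chr22:32802071-32802085, plus strand, exon 1 of 5): TGCacaTGCtcgccc

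MMP1, MMP3 and MMP10 lie on the same strand of chromosome 11. The coding sequences of MMP3 and MMP10 were 85.2% identical over 1428 aligned bases, and their transcripts shared 59 windows of 50 bases. No other pair of the proteases, or of the inhibitors, shared such a window, and identity in the other pairs ran from 59.7% (MMP1 and MMP9) to 70.1% (MMP1 and MMP3). How the counting treated reads that match more than 1 gene is not given in the sources used here, so counts of MMP3 and MMP10 may include reads of each other. Genes on the opposite strand overlap several members, and the use of strand is not given either, but these partners had few counts. They were 4 to 36 for SYN1 at TIMP1 and 0 to 5 for SYN3 at TIMP3, which share 0 exon bases, and 0 for WTAPP1 at MMP1. At MMP9, SLC12A5-AS1 shares 430 exon bases and had 0 to 3 counts, which is near the level of MMP9 in most groups. On the same strand, CEP295NL shares 198 exon bases with TIMP2 and had 2 to 23 counts.

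The members differed widely in level. Compared per length, in CPM per kilobase of exon, Control cells held TIMP2 at 128 ± 4.37 (SD, n = 3), TIMP1 at 94.4 ± 3.60 and the membrane protease MMP14 at 78.0 ± 1.98. TIMP3 followed at 24.6 ± 1.19, MMP2 at 9.01 ± 0.275 and MMP1 at 0.167 ± 0.116 CPM per kilobase. The inhibitors and MMP14 were thus the high members, and MMP9, MMP3 and MMP10 ranked below MMP1. In that group every member from TIMP2 down to MMP1 stood apart from the next, while the last 3 overlapped. TIMP2 ranked first in Control, in C5a cells and in all 5 vesicle groups. TIMP1 ranked first in TNFα (104 ± 5.20), IL-1β (112 ± 1.48) and epinephrine cells (134 ± 15.2 CPM per kilobase). TNFα cells also had MMP1 above MMP2, at 2.29 ± 0.537 against 1.66 ± 0.218 CPM per kilobase, though libraries of these neighbours overlapped. Across the 10 groups, 22 of 80 pairs of neighbours in rank overlapped between libraries.

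**Figure D1:**
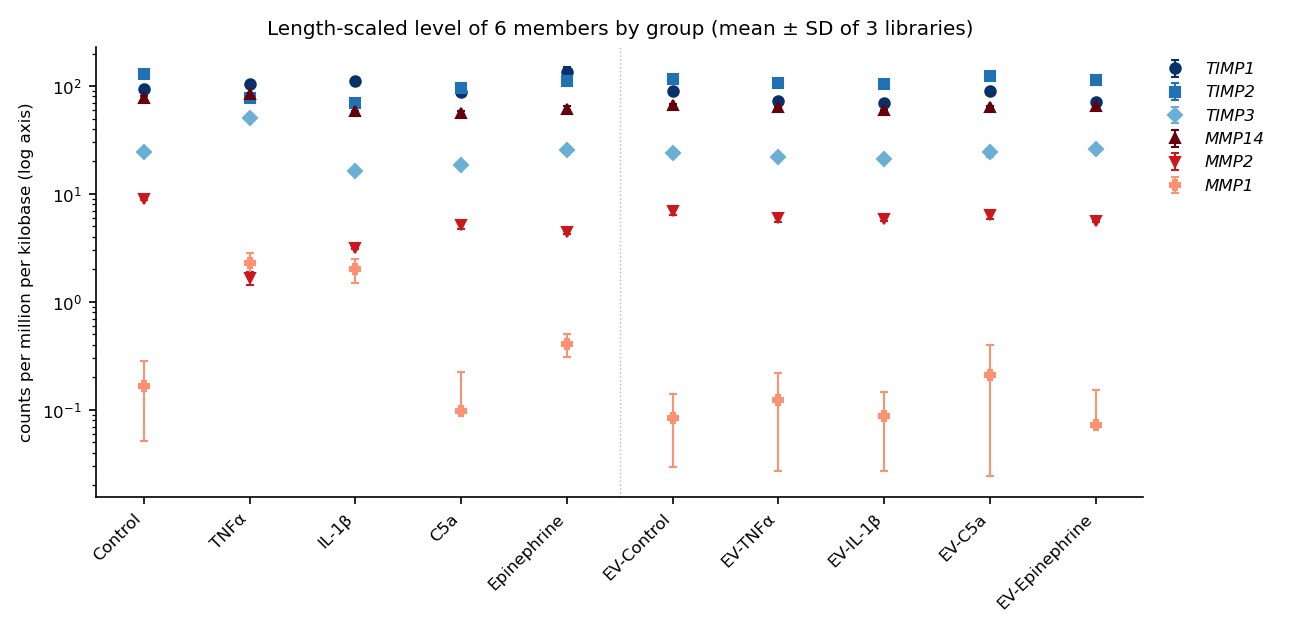
Length-scaled level of 6 members (CPM per kilobase of exon, log axis) in each of the 10 groups; symbols are means of 3 libraries and bars the SD, drawn upwards only where the SD exceeds the mean. TIMP1, TIMP2 and MMP14 form the top band in all groups, and MMP1 is near MMP2 only in TNFα and IL-1β cells.

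Differences were tested across all genes with edgeR's quasi-likelihood test, and a gene was called at a Benjamini-Hochberg adjusted p under 0.05. A filter on low counts left 6 members in the direct comparisons (MMP1, MMP2, MMP14 and the 3 TIMPs) and 5 among vesicle groups. MMP3, MMP9 and MMP10 did not pass it anywhere. MMP1 passed through the TNFα, IL-1β and epinephrine groups, where its counts were highest. Its being tested for these 3 stimuli, and called for TNFα and IL-1β, was thus bound to the filter. Fold changes are given on the log2 scale of these fits, levels in CPM.

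TNFα called 5 of the 6 tested members, 3 higher and 2 lower, where 52.7% of all 15908 tested genes were called (27.5% higher, 25.3% lower). IL-1β called all 6 tested, 2 higher and 4 lower, where 46.6% of genes were called (24.0% higher, 22.6% lower). The TNFα and IL-1β counts include MMP1, whose call was bound to the filter. C5a called 4 of 6, all lower, where 22.6% of genes were called (11.8% higher, 10.8% lower). Epinephrine called 4 of 6, 1 higher and 3 lower, where 25.2% of genes were called (13.5% higher, 11.8% lower). The median log2 change of the tested members was 0.12 for TNFα, -0.50 for IL-1β, -0.44 for C5a and -0.06 for epinephrine, beside medians over all genes of -0.01, -0.01, 0.00 and 0.01. These 4 comparisons share the Control libraries. In bulk RNA, fewer cells of a type and less RNA per cell cannot be told apart.

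**Figure D2:**
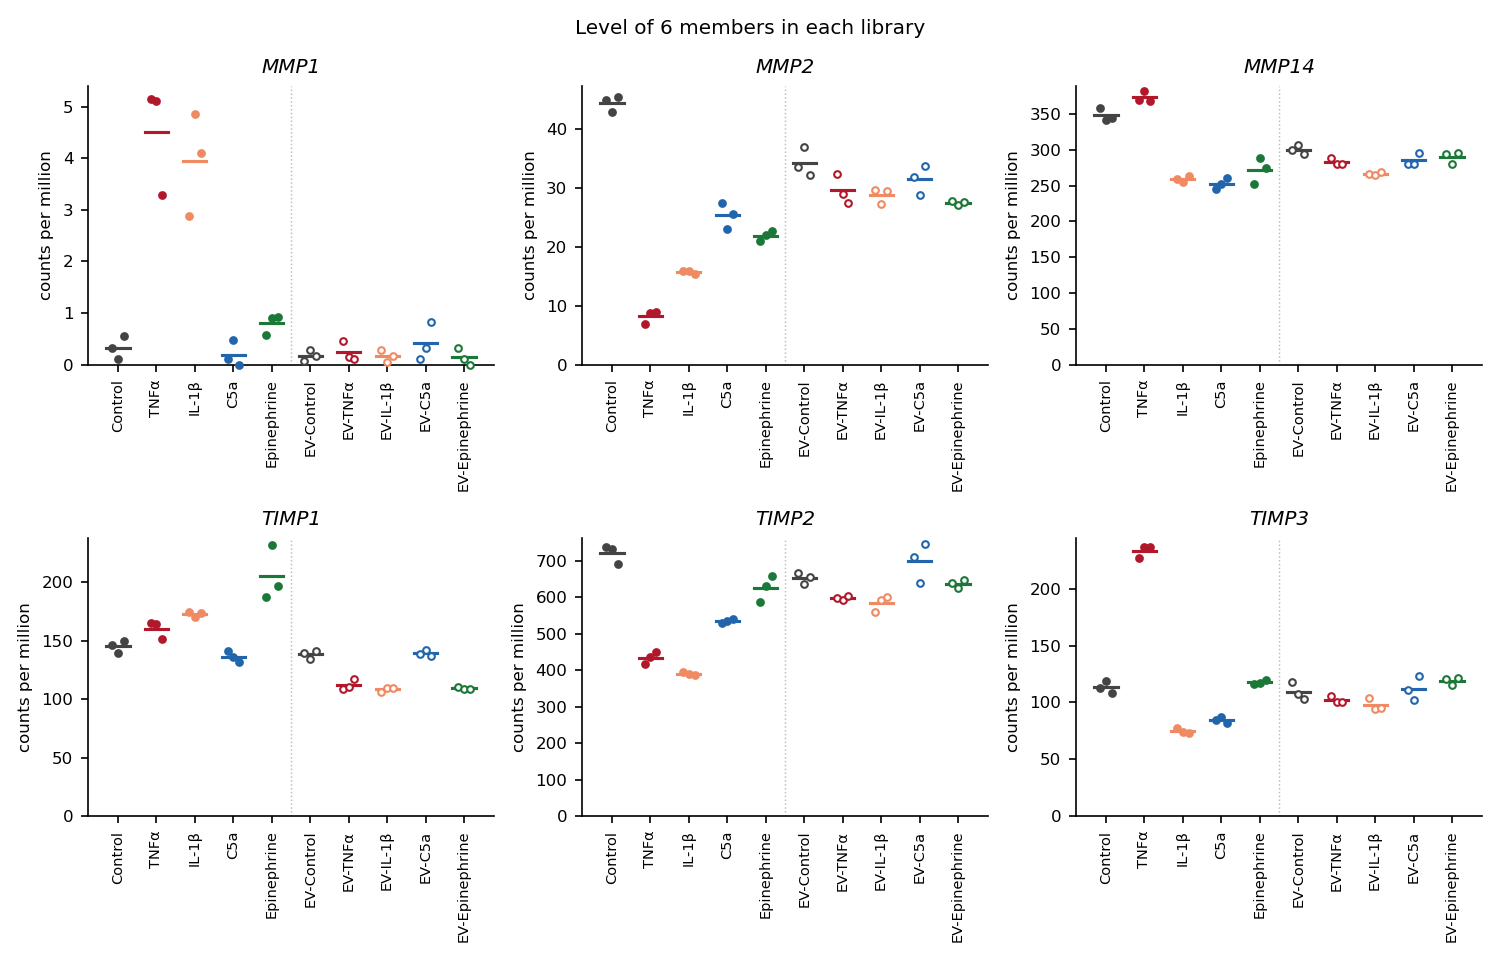
Level of 6 members (CPM, linear axes from 0) in each library; filled points are direct groups, open points vesicle groups and short lines group means. MMP1 is high only in TNFα and IL-1β cells, MMP2 is lower than Control in every stimulated direct group, and TIMP3 is high in TNFα cells and low in IL-1β cells.

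MMP1, the interstitial collagenase that cuts fibrillar collagen, was close to absent in Control, with 2, 6 and 10 counts. TNFα libraries held 57, 77 and 95 counts and IL-1β libraries 56, 77 and 92, so neither group overlapped with Control. The group means were 0.329 ± 0.228 CPM in Control, 4.51 ± 1.06 in TNFα and 3.95 ± 0.995 in IL-1β cells (SD, n = 3). MMP1 rose by 3.76 (SE 0.43, adjusted p = 9.88e-09) under TNFα and by 3.58 (SE 0.44, adjusted p = 4.70e-08) under IL-1β by edgeR's quasi-likelihood test. The size rests on few Control counts: without Control replicate 3 the values were 4.36 and 4.18. MMP1 entered the edgeR test through these same high groups, so its calls add no support beyond the counts themselves. IL-1β and TNFα cells overlapped in MMP1 (-0.18, SE 0.31, adjusted p = 0.672 by the same edgeR quasi-likelihood test).

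Epinephrine libraries held 11, 16 and 20 MMP1 counts, all above the 3 Control libraries. The change of 1.29 (SE 0.54) missed the threshold, with an adjusted p of 0.0775 by edgeR's quasi-likelihood test. It passed with no low-count filter (adjusted p = 0.0454), in DESeq2 (adjusted p = 0.0312) and, in the edgeR test without Control replicate 3, at 1.89 (adjusted p = 0.0331). The ratio of summed counts was 2.47, with a counting interval (exact binomial, 95%) of 1.41 to 4.52. C5a libraries held 0, 2 and 9 counts and overlapped with Control.

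MMP3 and MMP10, the stromelysins, which cut matrix proteins and activate other proteases, were at the edge of detection. Most MMP3 counts lay in IL-1β libraries and most MMP10 counts in TNFα libraries. MMP3 had 7, 9 and 13 counts in the IL-1β libraries and 1 count in a single TNFα library. The other 26 libraries had 0, which allows up to 3 counts each. Against a floor of 3 counts over the Control group, MMP3 was at least 9.38-fold higher in IL-1β cells. Its ratio between IL-1β and TNFα cells was 25.9 (4.29 to 1056). In the edgeR fit without the low-count filter, adjusted p was 0.00142 for IL-1β against Control and 0.0147 for IL-1β against TNFα.

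MMP10 had 2, 5 and 5 counts in the TNFα libraries. It had 2 counts in 1 IL-1β library and in 1 epinephrine library, and 0 in 25 libraries. Against the same floor MMP10 was at least 4.35-fold higher in TNFα than in Control cells, with an adjusted p of 0.0359 in the unfiltered edgeR fit. The ratio of IL-1β to TNFα cells was 0.149 (0.0161 to 0.667), but the unfiltered edgeR fit gave an adjusted p of 0.343. Intervals and floors here cover counting error only, since no molecular identifiers are described.

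MMP9, gelatinase B, an enzyme of basement membrane breakdown much studied at the blood-brain barrier, was likewise rare. TNFα libraries had 5, 10 and 15 counts against 0, 1 and 1 in Control, a ratio of 16.3 (4.14 to 141) with an adjusted p of 0.00551 in the unfiltered edgeR fit. IL-1β libraries had 1, 3 and 3 counts and overlapped with Control, with a ratio of 3.40 (0.647 to 33.5). In every other group MMP9 had at most 4 counts per library. At this depth no change of MMP9 outside the TNFα group was detectable.

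**Figure D3:**
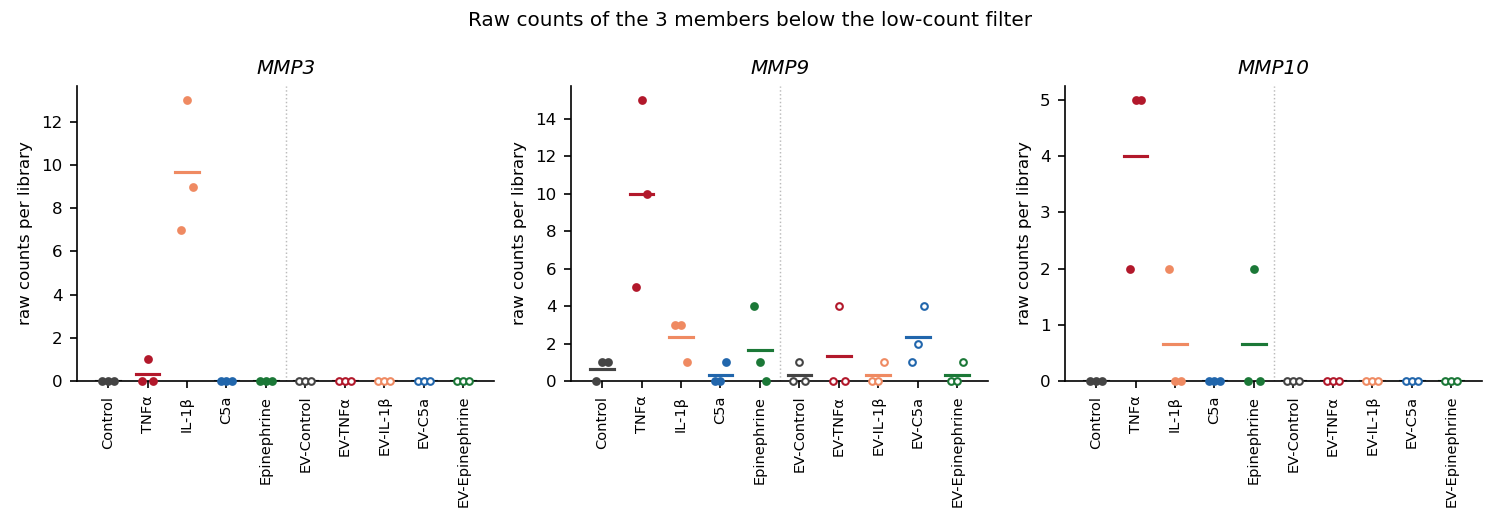
Raw counts of MMP3, MMP9 and MMP10 in each library (filled points direct groups, open points vesicle groups, short lines group means). MMP3 stands at 7 to 13 counts in IL-1β cells, MMP9 at 5 to 15 and MMP10 at 2 to 5 in TNFα cells, and nearly all other libraries are at or near 0.

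MMP2, gelatinase A, the constitutive basement membrane gelatinase, fell under all 4 direct stimuli. Control libraries held 42.9, 44.9 and 45.5 CPM. TNFα libraries held 6.95, 8.71 and 8.90 CPM, IL-1β libraries 15.3, 15.9 and 15.99, epinephrine libraries 21.1, 22.0 and 22.7, and C5a libraries 23.1, 25.6 and 27.4. None of the stimulated groups overlapped with Control. The log2 changes were -2.43 (SE 0.09) for TNFα, which is 5.40-fold lower, -1.49 (SE 0.09) for IL-1β, -1.01 (SE 0.08) for epinephrine and -0.80 (SE 0.08) for C5a. With edgeR's quasi-likelihood test the adjusted p-values spanned 4.07e-22 to 1.97e-09. IL-1β cells kept more MMP2 than TNFα cells, by 0.94 (SE 0.10, adjusted p = 1.59e-09, same edgeR quasi-likelihood test), in a comparison where 41.4% of genes were called (19.9% higher in IL-1β, 21.4% lower).

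MMP14, the membrane-anchored protease that activates pro-MMP2 on the cell surface with the help of TIMP2, was the most abundant protease of the members. Control libraries held 342, 345 and 358 CPM and TNFα libraries 368, 370 and 382 CPM, which did not overlap. Even so the difference of 0.10 (SE 0.05) did not pass, with an adjusted p of 0.0615 by edgeR's quasi-likelihood test. It passed with relative log expression factors, in DESeq2, in a fit of only these 2 groups and without Control replicate 1, with adjusted p-values of 0.0454 to 0.0498. Scaled by total counts alone it was -0.18, so no direction is given for MMP14 under TNFα.

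The other 3 stimuli lowered MMP14. IL-1β cells held 260 ± 4.07, C5a cells 253 ± 7.76 and epinephrine cells 272 ± 18.1 CPM, beside 348 ± 8.84 in Control (SD, n = 3). No library of these 3 groups reached the Control range. The changes were -0.42 (SE 0.05), -0.45 (SE 0.05) and -0.35 (SE 0.05), with adjusted p-values spanning 1.38e-09 to 2.65e-07 by edgeR's quasi-likelihood test. IL-1β cells were lower than TNFα cells by -0.52 (SE 0.05, adjusted p = 8.66e-12 by edgeR's quasi-likelihood test).

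TIMP1, the inducible inhibitor that binds pro-MMP9 and blocks most secreted MMPs, was the only member called higher under epinephrine. Control libraries held 139, 147 and 150.3 CPM, and epinephrine libraries 188, 197 and 232 CPM, without overlap. The change was 0.51 (SE 0.06, adjusted p = 1.00e-08), and IL-1β raised TIMP1 by 0.26 (SE 0.06, adjusted p = 0.000290), both by edgeR's quasi-likelihood test. In IL-1β cells the libraries held 170.0, 173 and 174 CPM. TNFα cells held 151, 165 and 165 CPM, all above Control by a narrow margin. The TNFα change of 0.14 (SE 0.06) had an adjusted p of 0.0358 by edgeR's quasi-likelihood test and is uncertain: it was -0.13 under total-count scaling, and lost without Control replicate 1 or 2 or TNFα replicate 1 or 2, with adjusted p-values of 0.0560 to 0.164. C5a and Control cells overlapped in TIMP1 (-0.08, SE 0.06, adjusted p = 0.320, edgeR's quasi-likelihood test). IL-1β and TNFα cells did not overlap in TIMP1, but the difference of 0.11 (SE 0.06, adjusted p = 0.101, same edgeR test) was not called. It was called in 2 of 7 other settings.

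TIMP2, the constitutive inhibitor that also bridges MMP14 and pro-MMP2, fell under all 4 direct stimuli. Control libraries held 693, 733 and 738 CPM. TNFα libraries held 417, 436 and 451 CPM, IL-1β libraries 387, 391 and 395, C5a libraries 529, 536 and 542, and epinephrine libraries 588, 631 and 658. The 4 groups stayed below Control without overlap, epinephrine most narrowly. TIMP2 changed by -0.73 (SE 0.04) under TNFα, -0.87 (SE 0.04) under IL-1β, -0.42 (SE 0.04) under C5a and -0.20 (SE 0.04) under epinephrine. With edgeR's quasi-likelihood test the adjusted p-values spanned 3.77e-18 to 0.000774. Between the cytokines the difference was -0.14 (IL-1β lower, adjusted p = 0.00784, edgeR's quasi-likelihood test). That call was lost without TNFα replicate 3 (-0.12, adjusted p = 0.0676), and the value was 0.05 under total-count scaling.

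TIMP3, the inhibitor that binds the matrix and also blocks ADAM17, the protease that sheds tumour necrosis factor, moved in opposite directions under the cytokines. Control libraries held 108, 113 and 119 CPM. TNFα libraries held 227, 237 and 237 CPM, and IL-1β libraries 73.5, 74.1 and 77.4. The 3 groups did not overlap with each other. TIMP3 rose by 1.05 (SE 0.05, 2.06-fold) under TNFα, fell by 0.59 (SE 0.05) under IL-1β and was lower in IL-1β than in TNFα cells by -1.63 (SE 0.05). Adjusted p-values for these 3 were 3.82e-20, 3.20e-12 and 4.60e-25 by edgeR's quasi-likelihood test. C5a lowered TIMP3 to 84.6 ± 2.66 CPM (-0.41, SE 0.05, adjusted p = 5.35e-08), while epinephrine cells, at 118 ± 2.05 CPM, overlapped with Control (0.07, SE 0.05, adjusted p = 0.335, both edgeR's quasi-likelihood test). In the comparison of the cytokines, 4 of the 6 tested members were called: MMP2 higher and MMP14, TIMP2 and TIMP3 lower in IL-1β cells. Over all genes, 41.4% were called there.

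The relation of members within a library does not depend on the scaling between libraries. MMP14 counts were 46.6% to 49.8% of TIMP2 counts in Control, 81.5% to 88.8% in TNFα cells and 65.4% to 68.1% in IL-1β cells. C5a (46.4% to 48.1%) and epinephrine cells (41.8% to 45.7%) did not share this shift. MMP2 counts were 5.85% to 6.56% of TIMP2 counts in Control and lower under each direct stimulus, at 1.67% to 2.00% in TNFα, 3.96% to 4.07% in IL-1β, 4.31% to 5.19% in C5a and 3.45% to 3.59% in epinephrine cells. So MMP2 fell more than TIMP2 in all 4. TIMP3 counts were 72.0% to 85.4% of TIMP1 counts in Control, 138% to 157% in TNFα cells and 42.4% to 44.4% in IL-1β cells, again without overlap. These are ratios of counts, not of protein or activity. MMP1 counts were 0.0766% to 0.374% of TIMP1 counts in Control, 2.18% to 3.11% in TNFα and 1.66% to 2.86% in IL-1β cells.

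**Figure D4:**
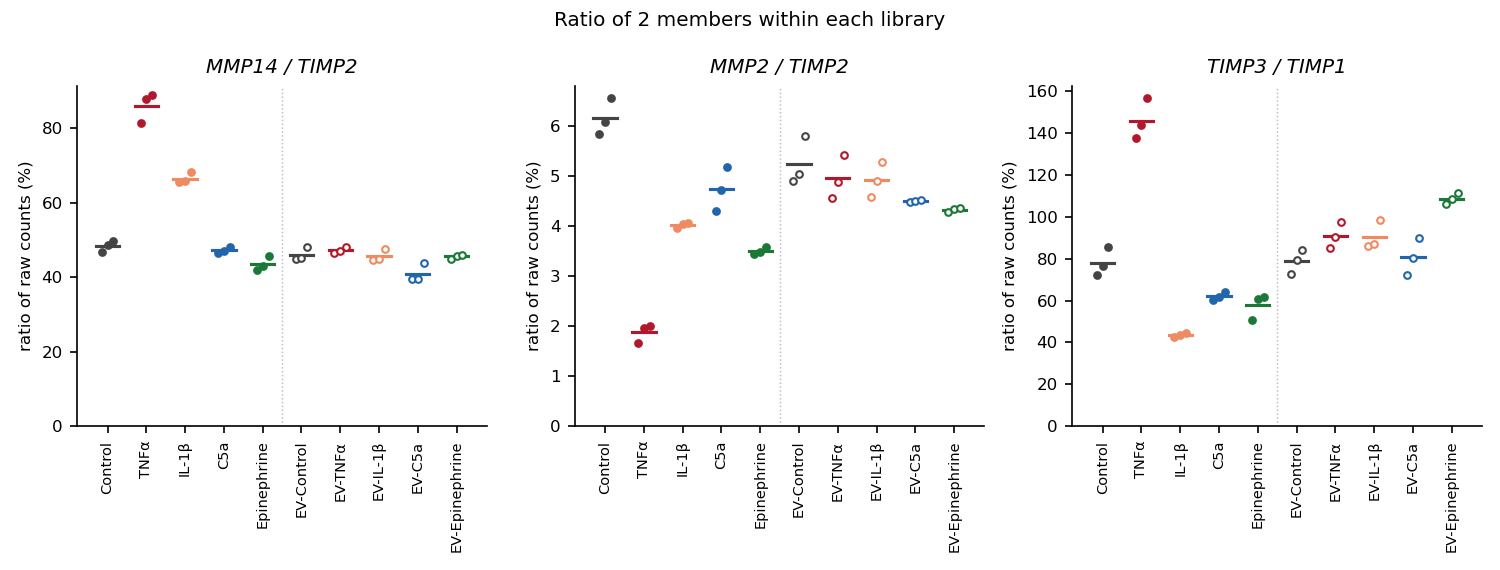
Ratio of raw counts of 2 members within each library, in percent, for MMP14 over TIMP2, MMP2 over TIMP2 and TIMP3 over TIMP1 (filled points direct groups, open points vesicle groups, points in rising order within a group, short lines group means). The TNFα libraries are highest for MMP14 over TIMP2 and TIMP3 over TIMP1 and lowest for MMP2 over TIMP2.

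Vesicle groups were compared with EV-Control, the cells given vesicles of unstimulated cells. Changes of the members were small and, where called, all downward. Vesicles of TNFα-treated cells called 2 of the 5 tested members, where 13.3% of 15918 genes were called (5.90% higher, 7.42% lower). Vesicles of IL-1β-treated cells called all 5 tested, where 14.6% of genes were called (6.49% higher, 8.14% lower). Vesicles of epinephrine-treated cells called 2 of 5, where 19.7% of genes were called (9.12% higher, 10.5% lower). The median log2 change of the tested members was -0.13, -0.17 and -0.05, beside 0.00, 0.00 and 0.01 over all genes. These comparisons share the EV-Control libraries.

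TIMP1 was the member lowered by all 3 of these vesicle preparations. EV-Control libraries held 135, 139.9 and 142 CPM. EV-TNFα libraries held 109, 111 and 117 CPM, EV-IL-1β libraries 106, 109 and 109.9, and EV-Epinephrine libraries 109, 109 and 111. All 9 lay below the EV-Control range. TIMP1 changed by -0.31 (SE 0.04), -0.36 (SE 0.04) and -0.34 (SE 0.04), with adjusted p-values of 6.66e-08, 1.46e-09 and 6.16e-09 by edgeR's quasi-likelihood test. The direct stimuli IL-1β and epinephrine had raised the same gene, and TNFα gave the uncertain value above.

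MMP2 stood at 32.2, 33.7 and 37.1 CPM in the EV-Control libraries. EV-Epinephrine libraries held 27.1, 27.7 and 27.8 CPM, below that range, a change of -0.32 (SE 0.08, adjusted p = 0.00169, edgeR's quasi-likelihood test). EV-IL-1β libraries held 27.2, 29.5 and 29.7 CPM, also without overlap (-0.25, SE 0.08, adjusted p = 0.0167, same test in edgeR). The EV-IL-1β call was lost without EV-Control replicate 2 (-0.20, adjusted p = 0.138) or EV-IL-1β replicate 2 (-0.21, adjusted p = 0.110). EV-TNFα libraries overlapped with EV-Control (-0.21, SE 0.08, adjusted p = 0.0562, edgeR's quasi-likelihood test), and the call was made without EV-Control replicate 3 (-0.25, adjusted p = 0.0354) or EV-TNFα replicate 1 (-0.28, adjusted p = 0.0231).

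MMP14 and TIMP2 fell slightly in EV-IL-1β cells. MMP14 went from 300.5 ± 5.67 to 267 ± 2.45 CPM (-0.17, SE 0.03, adjusted p = 0.000143) and TIMP2 from 654 ± 14.8 to 586 ± 22.2 CPM (-0.16, SE 0.04, adjusted p = 0.00367, SD, n = 3, edgeR's quasi-likelihood test). Neither overlapped with EV-Control. TIMP2 was also called in EV-TNFα cells, at 599 ± 4.28 CPM (-0.13, SE 0.04, adjusted p = 0.0215, edgeR's quasi-likelihood test). That call was lost in 5 of 6 fits without 1 library (EV-Control replicate 1 or 3, or any EV-TNFα replicate), with adjusted p-values of 0.0553 to 0.0998. TIMP3 in EV-IL-1β cells overlapped with EV-Control (-0.16, SE 0.06), and its adjusted p of 0.0499 by edgeR's quasi-likelihood test rose above the threshold in 5 of 7 other settings and 4 of 6 fits without 1 library. Those 4 fits left out EV-Control replicate 1 or 2 or EV-IL-1β replicate 2 or 3, with adjusted p-values of 0.0834 to 0.264.

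TIMP3 in EV-Epinephrine cells, at 119 ± 2.96 CPM, overlapped with EV-Control at 109 ± 7.70 (0.12, SE 0.06, adjusted p = 0.119, edgeR's quasi-likelihood test). It was called higher under total-count scaling (0.16, adjusted p = 0.0337) and without EV-Control replicate 1 (0.18, adjusted p = 0.0167), by the same edgeR test. The other values not called were -0.09 for MMP14 (SE 0.03) and -0.10 for TIMP3 (SE 0.06) in EV-TNFα cells, and -0.05 for MMP14 (SE 0.03) and -0.04 for TIMP2 (SE 0.04) in EV-Epinephrine cells.

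Vesicles of C5a-treated cells called 0 of 5 tested members with edgeR's quasi-likelihood test, where 0.0503% of genes were called (0.0126% higher, 0.0377% lower). At an unadjusted p under 0.05 there were 2, MMP14 (-0.07, SE 0.03) and TIMP2 (0.10, SE 0.04), and DESeq2 also called 0. The log2 differences of the 5 ran from -0.12 (MMP2, SE 0.08) to 0.10. MMP1 was not tested among vesicle groups: it had 0 to 15 counts per library there, with 9 summed over EV-Control and 23 over EV-C5a. The EV-C5a libraries held 2, 6 and 15 counts and overlapped with EV-Control at 1, 3 and 5. The ratio of summed counts was 2.42, with a counting interval (exact binomial, 95%) of 1.08 to 5.93, which leaves out the spread between libraries. MMP3 and MMP10 had 0 counts in all 15 vesicle libraries.

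**Figure D5:**
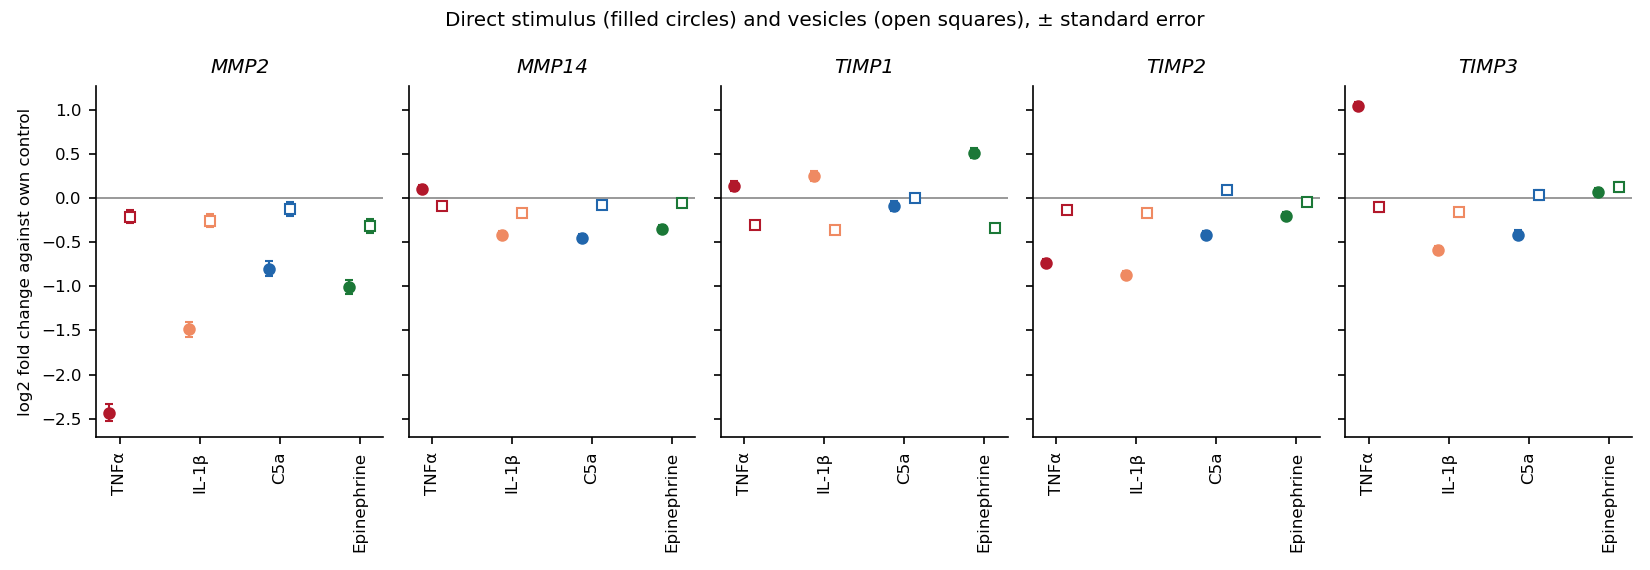
Log2 fold change of MMP2, MMP14, TIMP1, TIMP2 and TIMP3 against the own control of each series (Control for direct stimuli, filled circles; EV-Control for vesicles, open squares), with bars for the standard error. Vesicle values lie between -0.36 and 0.12, and direct values between -2.43 and 1.05.

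Whether the vesicle response differed from the direct response was tested as an interaction in the fit of all 30 libraries. For TNFα, all 6 tested members were called, 2 positive and 4 negative, where 44.7% of 16691 genes were called (21.3% positive, 23.4% negative). For IL-1β, all 6 were called, 4 positive and 2 negative, where 35.2% of genes were called (16.9% positive, 18.3% negative). The TNFα and IL-1β counts include MMP1, which passed the filter through direct groups where it was high. For C5a, 4 of 6 were called, all positive, where 11.9% of genes were called (5.87% positive, 6.05% negative). For epinephrine, 4 of 6 were called, 3 positive and 1 negative, where 24.2% of genes were called (11.7% positive, 12.5% negative). A positive value means a less negative or more positive change with vesicles than with the stimulus itself. MMP2 and TIMP2 were positive in all 4, both having fallen further under the stimuli, although the epinephrine value of TIMP2 (0.17, adjusted p = 0.0252) was lost in 6 of 12 fits without 1 library and in 2 of 7 other settings. The MMP1 calls for TNFα and IL-1β were lost without EV-Control replicate 2 (adjusted p = 0.143 and 0.125), and MMP14 for TNFα was -0.19, but 0.10 under total-count scaling. TIMP1 gave -0.45 for TNFα, -0.60 for IL-1β and -0.84 for epinephrine (SE 0.07 each), with adjusted p-values of 2.05e-07, 1.58e-10 and 3.70e-15 by edgeR's quasi-likelihood test.

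Vesicles of unstimulated cells were themselves compared with medium alone. EV-Control differed from Control in 3 of 6 tested members, all lower, where 21.9% of genes were called (12.1% higher, 9.80% lower). MMP2 changed by -0.37 (SE 0.08), MMP14 by -0.21 (SE 0.04) and TIMP2 by -0.14 (SE 0.04), with adjusted p-values of 0.000131, 2.56e-05 and 0.00732 by edgeR's quasi-likelihood test. Libraries of both groups did not overlap for these 3. The TIMP2 call was lost without Control replicate 1 (adjusted p = 0.0665) or EV-Control replicate 2 (adjusted p = 0.0637). TIMP1 (-0.07, SE 0.05) and TIMP3 (-0.05, SE 0.05) overlapped. All 30 libraries carry batch number 1 in the labels.

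The genes around the members in the same system were read from 3 lists. Of 17 other MMP genes, 8 were tested in the direct groups. TNFα called 2 higher and 4 lower, IL-1β 1 and 5, C5a 0 and 2, and epinephrine 0 and 4. Over all genes tested, 52.7%, 46.6%, 22.6% and 25.2% were called. Their median log2 change was -0.42 under TNFα, -0.36 under IL-1β, -0.16 under C5a and -0.41 under epinephrine, beside all-gene medians between -0.01 and 0.01. MMP19 rose from 16.9 ± 0.400 to 38.2 ± 1.67 CPM under TNFα (1.18, SE 0.09) but was lower under IL-1β and C5a (-0.32, SE 0.09, each). The membrane-type protease MMP24 fell under TNFα (-1.88, SE 0.20), IL-1β (-0.77, SE 0.18) and epinephrine (-1.30, SE 0.18). MMP15, another membrane-type protease, fell under TNFα (-0.45), IL-1β (-0.49), C5a (-0.52) and epinephrine (-0.54, SE 0.09 each) and was higher in EV-Epinephrine cells (0.23, SE 0.07). MMP17 fell under TNFα (-0.63, SE 0.10), IL-1β (-0.41, SE 0.09) and epinephrine (-0.29, SE 0.09). Adjusted p-values of the calls named here spanned 2.50e-14 to 0.0174 by edgeR's quasi-likelihood test.

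Of 30 ADAM and ADAMTS genes, which encode related membrane sheddases and proteoglycan-cutting proteases, 21 were tested in the direct groups. TNFα called 10 higher and 7 lower, IL-1β 3 and 6, C5a 2 and 5, and epinephrine 4 and 6, where 52.7%, 46.6%, 22.6% and 25.2% of all genes were called. The list's median log2 change was 0.13, -0.10, -0.08 and -0.07. ADAMTS1, which cuts versican and aggrecan, stood at 10.8 ± 0.553 CPM in Control, 57.2 ± 7.32 in TNFα, 21.5 ± 0.900 in IL-1β and 22.5 ± 0.827 in epinephrine cells. It was lower in EV-Epinephrine cells (-0.35, SE 0.11). ADAMTS6 rose under TNFα (2.43, SE 0.12), IL-1β (1.14, SE 0.13), epinephrine (0.92, SE 0.13) and C5a (0.36, SE 0.14). ADAM8, a sheddase of leukocytes and activated endothelium, rose under TNFα (2.29, SE 0.14) and fell under C5a (-0.86, SE 0.18) and epinephrine (-1.03, SE 0.18). ADAMTS15 fell from 74.3 ± 2.19 CPM in Control to 16.6 ± 0.756 under TNFα (-2.17, SE 0.07) and to 27.2 ± 1.64 CPM under IL-1β (-1.44, SE 0.06). In vesicle groups ADAMTS15 was lower in EV-TNFα (-0.63), EV-IL-1β (-0.62) and EV-Epinephrine cells (-0.39), and ADAMTS12 higher (0.33, 0.41 and 0.62). ADAMTS12 was also higher under direct TNFα (0.83, SE 0.09) and IL-1β (0.40, SE 0.09). The calls named here had adjusted p-values spanning 3.71e-25 to 0.0493 by edgeR's quasi-likelihood test.

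Of 20 activators and other regulators of MMPs, 16 were tested. TNFα called 8 higher and 5 lower, IL-1β 5 and 6, C5a 2 and 6, and epinephrine 6 and 4, beside the same shares of all genes called (52.7%, 46.6%, 22.6% and 25.2%). The list's median log2 change was 0.29, -0.11, -0.15 and 0.09. SERPINE2, protease nexin-1, an inhibitor of plasmin generation, stood at 17.0 ± 2.79 CPM in Control, 213 ± 7.31 in TNFα and 169 ± 5.03 in IL-1β cells, and was slightly higher under epinephrine (0.26, SE 0.08). TFPI2, an inhibitor of plasmin and of several MMPs, rose under TNFα (2.02), IL-1β (1.48), epinephrine (0.67) and C5a (0.20, SE 0.05 each). CD44, the hyaluronan receptor that docks MMP9 and MMP14 on cells, rose from 174 ± 7.99 CPM in Control to 543 ± 21.0 under TNFα (1.64), 504 ± 5.10 under IL-1β (1.54), 293 ± 2.70 under epinephrine (0.76) and 207 ± 5.24 under C5a (0.26, SE 0.04 each). It was lower in EV-TNFα (-0.27), EV-IL-1β (-0.21) and EV-Epinephrine cells (-0.17, SE 0.04 each). In vesicle groups TFPI2 was lower in EV-TNFα (-0.62), EV-IL-1β (-0.65) and EV-Epinephrine cells (-0.89, SE 0.06 each). The calls named here had adjusted p-values spanning 5.04e-31 to 0.0177 by edgeR's quasi-likelihood test. EV-C5a called 0 genes of the 3 lists, where 0.0503% of all genes were called.

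Members resembled each other in part over the 10 group means of log2 CPM. MMP2 and TIMP2 had a Pearson r of 0.84, MMP14 and TIMP3 of 0.82 and MMP1 and MMP2 of -0.84. MMP14 and TIMP2, both partners of pro-MMP2, had an r of 0.07. These values describe 10 points that share libraries, and for MMP1 they rest largely on the TNFα and IL-1β groups. MMP14 and TIMP3 were both highest in TNFα cells, at 373 and 234 CPM. The next highest means were 348 CPM for MMP14 (Control) and 119 CPM for TIMP3 (EV-Epinephrine). Among genes with at least 5 CPM in some group, the closest patterns were those of VDAC2, IRAK3 and DNAH5 for MMP1 (r of 0.98 each), RTL8B, PGAP3 and MSRB2 for MMP2 (0.98 each) and WBP2, BSDC1 and CYBC1 for MMP14 (0.98, 0.96 and 0.96). For the inhibitors they were MFF, SRI and IGFBP5 for TIMP1 (0.98, 0.96 and 0.95), COMMD7, NDUFB6 and VAT1 for TIMP2 (0.99, 0.98 and 0.98) and PKP1, RILPL2 and CCDC102A for TIMP3 (0.98, 0.98 and 0.97).

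Promoter sequence from RefSeq (GRCh38.p14) was at hand for 4 of the 9 members, MMP10, MMP14, TIMP1 and TIMP3. The 250 bases before each start were searched on both strands for the AP-1 motif TGANTCA, which is its own reverse complement, and for the NF-kappaB consensus, since TNFα and IL-1β are known to act through both factors. MMP10 held 1 AP-1 match, 67 to 61 bases before the start, and MMP14, TIMP1 and TIMP3 held no match to either. Of 35116 RefSeq promoters of that length, 6.57% held the AP-1 motif and 9.96% the NF-kappaB consensus. The MMP10 stretch is shown because it holds the only match, with the match in capitals, written 5′ to 3′ on the gene's minus strand (chr11:102780629-102780878).
MMP10 promoter: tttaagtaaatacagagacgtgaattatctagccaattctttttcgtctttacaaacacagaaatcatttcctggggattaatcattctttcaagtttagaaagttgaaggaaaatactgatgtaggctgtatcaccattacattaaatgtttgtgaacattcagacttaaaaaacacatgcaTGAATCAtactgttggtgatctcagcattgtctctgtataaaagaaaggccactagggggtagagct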

How the data were processed

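The authors deposited 1 table of raw counts of reads per Ensembl gene for the 30 libraries, with no normalization. STAR, FastQC, DESeq2, R 4.4.1 and the build hg38 are named without roles in the submitters' processing notes; the counting program, annotation and use of strand are not given in the sources used here. Lines without a gene ID held 0.000789% to 0.00164% of counts and were left out. Members and gene lists were chosen with earlier results of these data known. The tests used edgeR 4.0.16 under R 4.3.3: filterByExpr, trimmed mean of M-values, robust quasi-likelihood fits of the 15 direct, the 15 vesicle or all 30 libraries, two-sided tests and Benjamini-Hochberg adjustment over all genes tested. The test was tried on simulated counts for TNFα against Control. CPM were scaled in the fit of all 30 libraries (factors 0.842 to 1.05, lowest in TNFα). Replicates of a group differed beyond sampling noise (chi-square per gene 2.04 to 12.9 over 30 pairs). Alternatives were relative log expression factors, total counts, no low-count filter, a mean of at least 50 counts, DESeq2 1.42.0, only the groups compared, a replicate block and leaving out each library. All 9 members were examined in every comparison, but some values that were not called are not printed. For each tested member, the 3 most similar genes were named. From each list, up to 3 called genes with the largest change, at least 5 CPM and no overlap were named. Each was then given in each comparison with its own control that called it. A gene of the lists that this rule names is not reported here.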

Additional observations from a re-analysis of the deposited data

Results flagged for a closer look

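The test of the difference between the vesicle response and the direct response passed the threshold for 20 of 24 values of the tested members (edgeR's quasi-likelihood test, fit of all 30 libraries). Over all genes, 44.7% (TNFα), 35.2% (IL-1β), 11.9% (C5a) and 24.2% (epinephrine) were called. The values share libraries and include MMP1, which passed the filter through direct groups where it was high. For TNFα the differences on the log2 scale were -3.24 for MMP1, 2.22 for MMP2, -0.19 for MMP14, -0.45 for TIMP1, 0.60 for TIMP2 and -1.14 for TIMP3. For IL-1β they were -3.58 for MMP1, 1.24 for MMP2, 0.25 for MMP14, -0.60 for TIMP1, 0.72 for TIMP2 and 0.44 for TIMP3. For C5a they were 0.69 for MMP2, 0.39 for MMP14, 0.53 for TIMP2 and 0.46 for TIMP3. For epinephrine they were 0.70 for MMP2, 0.31 for MMP14, -0.84 for TIMP1 and 0.17 for TIMP2.

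The MMP1 differences rest on few counts in the vesicle groups. Without EV-Control replicate 2 they were -2.71 for TNFα (adjusted p = 0.143) and -3.05 for IL-1β (adjusted p = 0.125) in the same edgeR test. They also moved by over 1.5 times in fold without Control replicate 3 (-3.84 and -4.18), without EV-TNFα replicate 1 (-4.08) and without EV-IL-1β replicate 1 (-4.16). The TIMP2 difference for epinephrine was lost in 6 of 12 fits that left out 1 library (Control replicate 1 or 2, Epinephrine replicate 1, EV-Control replicate 2, EV-Epinephrine replicate 1 or 3), with adjusted p-values of 0.0619 to 0.125 in that test. It was also lost with no low-count filter (0.16, adjusted p = 0.0731) and when the fit held just the 4 groups involved (0.16, adjusted p = 0.0729). The MMP1 difference for C5a, 2.01 with an adjusted p of 0.279, passed only without C5a replicate 2 (3.76, adjusted p = 0.0455).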

How the results depend on the processing

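Of 1171 member values recomputed under other settings, 1119 kept their side of the threshold, 34 lost the call, 14 gained it and 4, called in at least 1 of the fits compared, changed sign. Of the 1119, 5 values called in neither fit changed sign: MMP1 for IL-1β against TNFα under total counts, and, in 4 fits without 1 library, that value, TIMP1 and TIMP3 for EV-C5a. The other 4 came with total-count scaling: MMP14 (-0.18) and TIMP1 (-0.13) for TNFα against Control, TIMP2 (0.0494, adjusted p = 0.330 by edgeR) for IL-1β against TNFα, and MMP14 (0.10) for TNFα vesicles minus direct. That scaling put the median of all genes at -0.29 for TNFα against Control, 0.21 for IL-1β against TNFα, 0.31 for the TNFα interaction and 0.11 for the IL-1β interaction. Higher and lower calls over all genes were then 2283 and 7783 for TNFα (4369 and 4019 otherwise), 2919 and 4637 for IL-1β (3824 and 3595), 6504 and 2041 for IL-1β against TNFα (3168 and 3412), 1612 and 2169 for EV-Control against Control (2024 and 1635), 1975 and 1305 for EV-Epinephrine (1452 and 1679), 6891 and 2093 for the TNFα interaction (3561 and 3907) and 3770 and 2273 for the IL-1β interaction (2827 and 3052). Member counts stayed within 1.5 times in 201 of 207 cases. With a mean of at least 50 counts TNFα called 3 members in place of 5, with MMP1 no longer tested and TIMP1 at an adjusted p of 0.0734 in edgeR's quasi-likelihood test. Leaving out 1 library gave 1 to 2 called members for EV-TNFα (2 with all libraries; 1 without EV-Control replicate 1, EV-TNFα replicate 2 or EV-TNFα replicate 3) and 3 to 5 for EV-IL-1β (3 without EV-Control replicate 2 or EV-IL-1β replicate 2). Replicate numbers did not pair the samples: deviations from the group means of same-numbered libraries correlated between -0.04 and 0.03. With a replicate block, 0 of 80 member calls and 0 of the 14 counts of called members changed, for example MMP14 for TNFα at 0.10 (adjusted p = 0.0741, edgeR's quasi-likelihood test). The depth limits what can be said of MMP3, MMP9 and MMP10, whose counts stayed at or under 15, and of MMP1 outside the TNFα and IL-1β groups.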
